A study of Arabidopsis thaliana with 12 samples.

Results

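The subject here is whether seedlings of the line 46T answered dehydration in the way wild-type seedlings did. All 12 arrays of the series entered the comparison, 3 in each of 4 groups: wild-type (WT) seedlings left untreated, WT seedlings dehydrated for 1 h, 46T seedlings left untreated and 46T seedlings dehydrated for 1 h. Plants were Arabidopsis thaliana seedlings 1 week old, 46T is a line overexpressing the transcription factor WRKY46, and dehydrated seedlings had lain on filter paper under dim light. The promoter of the transgene and the number of plants per sample are not given in the sources used here. 46T is 1 line, so an effect of WRKY46 and an effect of the line itself cannot be told apart. No probe set carries the name WRKY46 in the annotation used, and the overexpression was therefore not checked. The arrays of a group are biological replicates, per the labels.

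Each Affymetrix ATH1 array gave 1 signal per probe set, on the log2 scale, so a difference of 1 is 2-fold. Of 22746 probe sets that are not controls, 14495 were tested, those that exceeded the 40th percentile of 3 or more arrays. The dehydration response of a line is its dehydrated mean minus its control mean. The interaction is the 46T response minus the WT response, so a positive value means a larger rise, or a smaller fall, in 46T. A probe set was called at an adjusted p below 0.05 in limma's moderated test, with Benjamini-Hochberg adjustment over all tested probe sets. Errors of differences are standard errors (SE) from that fit, with n = 3 arrays per group, and intervals are 95% intervals from it. The fit uses the same spread for all groups, so a probe set has the same SE in both lines.

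Water loss in plants raises abscisic acid and cytosolic calcium, and both signals lead within minutes to hours to new transcription. Calmodulin-like proteins bind calcium and pass the signal on, LEA proteins and dehydrins protect drying cells, and many transcription factors of early responses rise briefly after almost any stress or touch. WRKY proteins are plant transcription factors that bind the W box, and they are best known from defence, senescence and abiotic stress.

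The arrays were not equally uniform. The photosynthesis genes that mark green tissue were bright on every array, with a mean log2 signal of 14.28 to 14.76 over 5 tested genes. The median SD between replicates was 0.32 in WT control, 0.19 in WT dehydrated, 0.14 in 46T control and 0.18 in 46T dehydrated. WT control replicate 1 stood apart, at 72.7 on the second principal component, which held 27.2% of the variance. The mean log2 signal of 27 poly-A control probe sets was 7.32 to 8.06 on the WT arrays and 7.07 to 7.41 on the 46T arrays, and the part of this difference in the results was not tested beyond a fit with it as a covariate.

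Most of the response was shared. In WT, 1680 probe sets were called (11.6% of those tested), of which 1057 rose (7.29%) and 623 fell (4.3%). In 46T, 1476 were called (10.2%), of which 969 rose (6.69%) and 507 fell (3.5%). Of these, 736 rose in both lines (5.08%) and 279 fell in both (1.92%), and 0 were called in opposite directions by limma at the same threshold. The counts moved with the arrays used. Without WT dehydrated replicate 1 or 2, 833 and 869 probe sets were called in WT. In 46T, 2382 were called without WT control replicate 1, and 879, 834 and 772 without 46T control replicate 2, 46T control replicate 3 and 46T dehydrated replicate 1. Without WT control replicate 1, 875 rose and 574 fell in both lines. Left out in turn, the other arrays gave 538 to 726 shared rises and 82 to 263 shared falls, and the shared falls came below 279 by more than 1.5 times without any 46T control array, without WT dehydrated replicate 1 or 2, and without 46T dehydrated replicate 1 or 2.

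The 736 shared risers had a median rise of 1.31 in WT and 1.45 in 46T. Averaged per array, their log2 signal was 7.95, 7.99 and 7.98 in WT control and 7.99, 8.03 and 7.96 in 46T control. It was 9.69, 9.61 and 9.41 in WT dehydrated and 9.84, 9.69 and 9.70 in 46T dehydrated. The control arrays of both lines overlapped. The dehydrated arrays barely did, with the highest WT array at 9.694 and the lowest 46T array at 9.693, and the other 46T arrays were above every WT array. The 279 shared fallers had a median difference of -0.78 in WT and -0.76 in 46T. Their mean signal was 10.13, 10.12 and 10.04 in WT control, 10.03, 10.12 and 10.16 in 46T control, 9.12, 9.20 and 9.39 in WT dehydrated and 9.02, 9.29 and 9.42 in 46T dehydrated. For the shared fallers the lines overlapped in both states. These sets were chosen by the same calls, so their levels describe the response and test nothing.

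**Figure D1:**
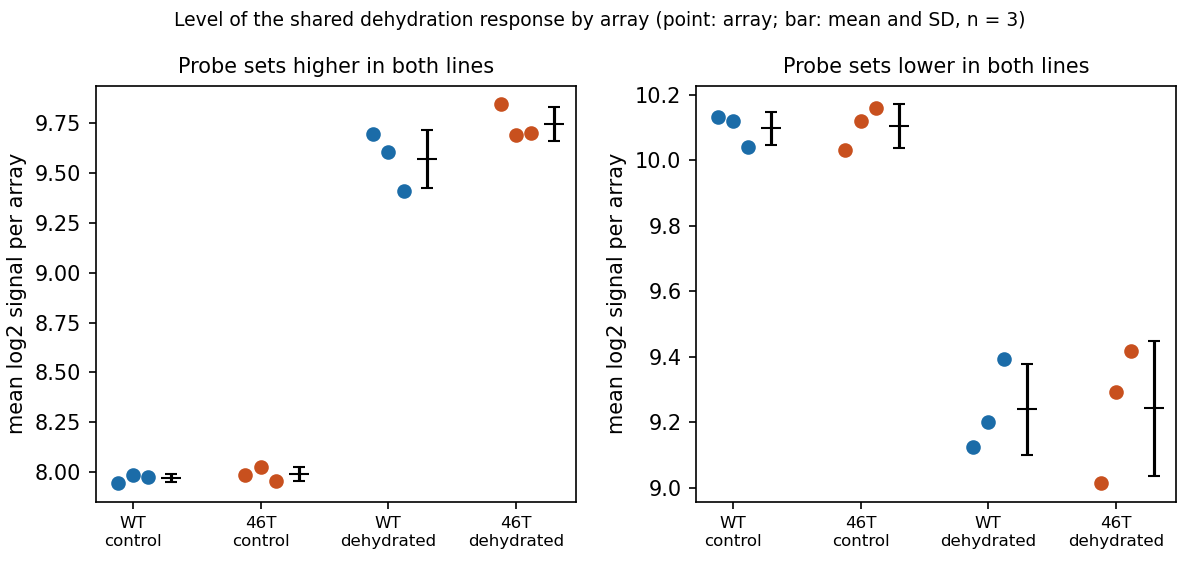
Mean log2 signal per array (vertical axis) of the 736 probe sets higher after dehydration in both lines (left) and the 279 lower in both lines (right), with the 4 groups along the horizontal axis. Points are arrays (blue for WT, orange for 46T), and bars are the mean and SD of 3 arrays. The lines overlap in the control arrays of both panels and in the dehydrated arrays of the right panel, and they barely overlap in the dehydrated arrays of the left panel.

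Some of the strongest shared risers are known early stress genes. STZ, a zinc-finger repressor induced by drought, cold and salt, read 7.21, 9.14 and 7.51 in WT control and 12.14, 11.76 and 11.75 in WT dehydrated. In 46T it read 7.17, 7.80 and 7.48 in control and 12.27, 12.21 and 12.14 in dehydrated seedlings. Control and dehydrated arrays were far apart in each line, with a rise of 3.93 ± 0.36 in WT (limma adjusted p = 6.36e-06) and 4.72 ± 0.36 in 46T (limma adjusted p = 9.03e-07). The interaction of 0.79 ± 0.51 did not pass, and it fell to 0.20 without WT control replicate 2, the array with the high control value. AT4G29780, a locus without a symbol, rose by 4.13 ± 0.22 in WT and by 4.52 ± 0.22 in 46T. AT5G19240 rose by 3.37 ± 0.20 and 3.66 ± 0.20. Both loci lay at 6.67 to 8.58 on every control array and at 11.14 to 12.43 on every dehydrated array.

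The shared fallers included a light-dependent enzyme of chlorophyll synthesis and a regulator of wax synthesis. PORB, a protochlorophyllide oxidoreductase, read 11.39, 11.90 and 11.90 in WT control, 10.24, 10.56 and 10.71 in WT dehydrated, 11.48, 11.44 and 12.35 in 46T control and 10.14, 10.88 and 10.87 in 46T dehydrated. The dehydrated arrays were below the control arrays in each line, with a difference of -1.22 ± 0.26 in WT (limma adjusted p = 0.0078) and -1.13 ± 0.26 in 46T (limma adjusted p = 0.0121). AT5G61590, which RefSeq also lists as DEWAX, a repressor of wax biosynthesis, differed by -1.54 ± 0.21 in WT and -1.23 ± 0.21 in 46T. AT3G62550, AT2G15960 and AT1G22690, which carry no symbol, fell in both lines as well, by 1.65, 1.36 and 1.14 in WT and by 1.86, 1.16 and 1.35 in 46T.

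Across all tested probe sets the responses correlated with Pearson's r of 0.849 and Spearman's rho of 0.722. This is a description over 14495 probe sets of the same arrays, which are not independent, and the responses share no array. Least squares gave a slope of 0.886 for the 46T response on the WT response, with an intercept of -0.03. The same method with the axes exchanged gave 0.813 for WT on 46T. Error in the values on the horizontal axis lowers a least squares slope, whichever line is placed there. The mean squared SE of a response was 0.0639, against a variance of 0.345 for the WT responses and 0.376 for the 46T responses. With that error taken off, the slope of 46T on WT was 1.09 and that of WT on 46T was 0.979, and a line fitted orthogonally had a slope of 1.05. Both the correction and the orthogonal line take the error as equal in the lines, whereas replicates varied most in WT control. Slopes corrected with each line's own error were not computed. Over the 1015 probe sets called the same way in both lines, least squares gave 1.04. The value below 1 therefore held for plain least squares, and the corrected, orthogonal and called-only lines were above 1.

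The slope also moved with the array. Set against the mean WT response, the slopes of the single 46T dehydrated arrays were 1.03, 0.837 and 0.787. Set against the mean 46T response, those of the WT dehydrated arrays were 0.919, 0.827 and 0.693. This spread between replicates of a group was wider than the distance from 1 of each slope given above. Leaving out 1 array at a time, the least squares slope of 46T on WT lay between 0.764, without WT control replicate 2, and 0.936, without 46T dehydrated replicate 3. Slopes of single arrays vary more than those of group means and share their line's control mean, so their range is not the error of the slope. A difference in the overall size of the response was not tested.

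**Figure D2:**
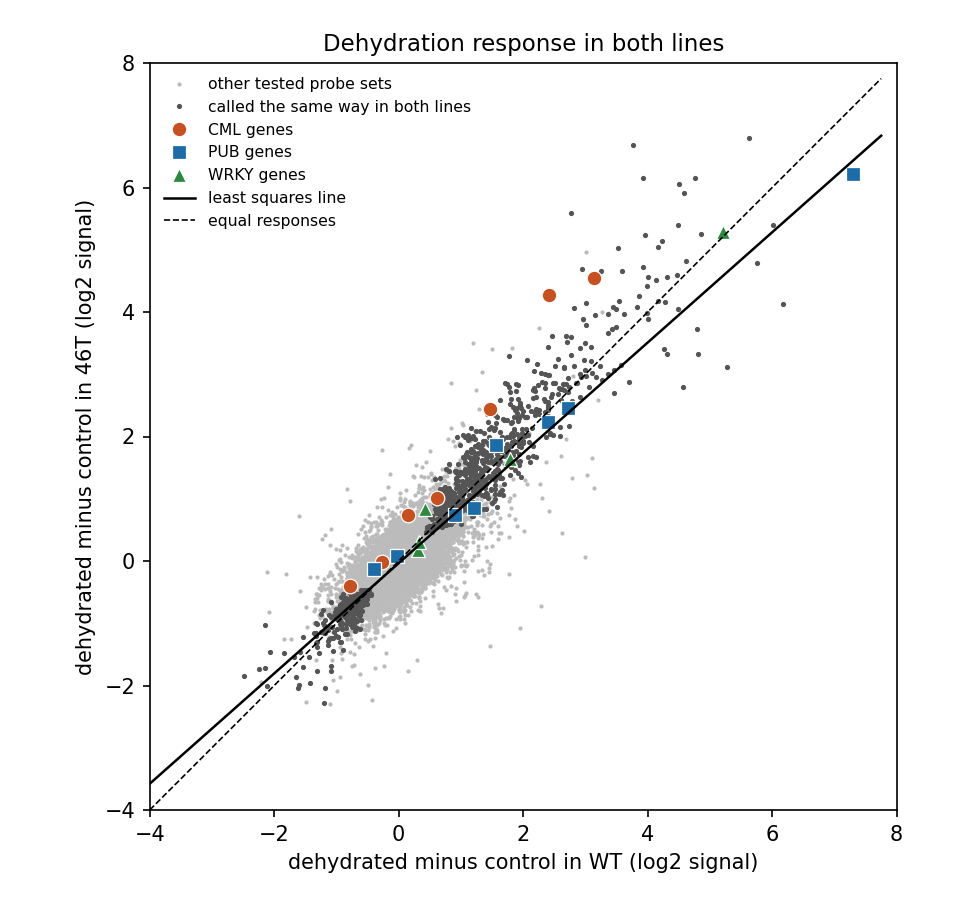
Dehydrated minus control in 46T (vertical axis) against dehydrated minus control in WT (horizontal axis), both in log2 signal, for 14495 tested probe sets. Dark points were called the same way in both lines; the solid line is least squares with a slope of 0.886 and the dashed line marks equal responses. The calmodulin-like (CML) genes lie above the dashed line, while the U-box ligase (PUB) and WRKY genes lie on either side of it.

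The difference between the responses changed with their size. Where the average of both responses was above 2, in 215 probe sets, the median rise was 2.66 in WT and 2.85 in 46T, the median interaction was 0.28 and 155 of the 215 were positive. Between 1 and 2, in 439 probe sets, the median interaction was 0.11 with 272 positive, but 0.03 with 234 positive without WT dehydrated replicate 3 and 0.18 without WT dehydrated replicate 1. Over all 14495 probe sets it was -0.04. Above 2, the median interaction stayed between 0.21 and 0.40 without any 1 array, with 139 to 160 positive, and it was lowest without WT dehydrated replicate 3 and highest without WT dehydrated replicate 1. For the same 215 probe sets, 46T minus WT had a median of -0.04 in control seedlings, where 101 were higher in 46T, and 0.32 in dehydrated seedlings, where 168 were higher in 46T. Over all tested probe sets, 58.5% were higher in 46T control and 54.9% in 46T dehydrated. Of the 215, 81 lay below the 40th percentile on all 6 control arrays and 77 on none, and over these 77 the median interaction was 0.29 with 65 positive.

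On the side of the falls the lines differed less, and the sign depended on the arrays. In the 107 probe sets with an average difference of -1 or lower, the median was -1.19 in WT and -1.25 in 46T, and the median interaction was -0.10 with 49 positive. It turned to 0.04 without WT dehydrated replicate 3 and to 0.12 without 46T dehydrated replicate 1. Between -1 and -0.5, in 1057 probe sets, the median interaction was 0.00, and between 0.5 and 1, in 970 probe sets, it was -0.07.

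**Figure D3:**
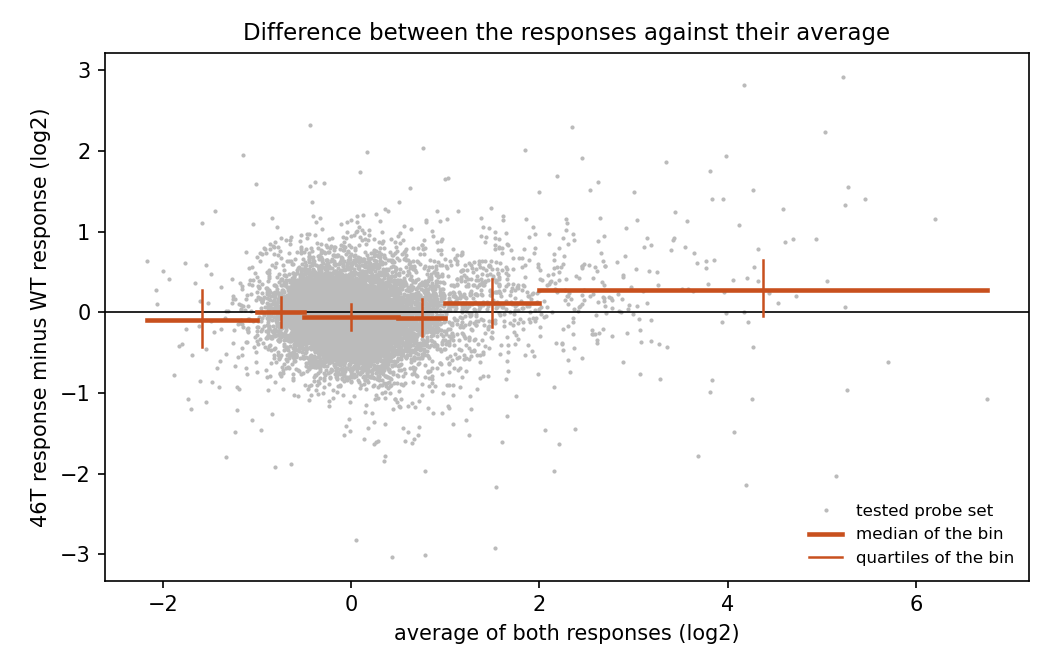
Interaction (46T response minus WT response, log2, vertical axis) against the average of both responses (log2, horizontal axis) for 14495 tested probe sets in grey. Orange horizontal bars are the median of each of 6 bins, drawn over the width of the bin, and thin vertical bars span the quartiles. The median is 0.28 above an average rise of 2 and between -0.10 and 0.11 in the other bins.

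For single probe sets the difference between the responses passed no test. Of 14495 probe sets, 0 (0%) were called for the interaction in limma, the smallest adjusted p was 0.9999, and 291 (2.01%) had an unadjusted p below 0.05. Of those 291, 170 had a positive interaction and 121 a negative one. The share of 2.01% is below the threshold of 0.05 itself, which is the share expected without any difference. The fit takes 1 spread for all groups, whereas replicates varied most in WT control, and the part of that was not tested. The 0 calls do not show that the responses were equal. The count at an unadjusted p below 0.05 depended on the WT control arrays, with 558 without replicate 1, 815 without replicate 2 and 654 without replicate 3. It was 1216 (8.39%) with array weights and 664 (4.58%) with the poly-A covariate. The median SE of an interaction was 0.30, and 0.25 over the brighter probe sets, split at the median signal. In simulated data of the same size the fit called 33% of 2-fold interactions and 90% of 4-fold interactions. Those changes were planted only in the brighter probe sets, with normal noise of the same spread in all groups. Over the dimmer probe sets the median SE was 0.36, and recovery there was not simulated. For 9664 probe sets (66.7%) the whole 95% interval of the interaction lay within 2-fold in either direction, among them 435 of the 736 shared risers and 242 of the 279 shared fallers. For the remaining probe sets a 2-fold difference between the responses was not excluded by the interval.

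Probe sets called in only 1 of the lines mostly moved the same way in the other. The 321 that rose in WT alone by call had a median difference of 0.85 in WT and 0.49 in 46T, and 98.8% had the same sign in both. The 233 that rose in 46T alone had medians of 0.50 in WT and 0.91 in 46T, and 95.7% had the same sign. The 344 called lower in WT alone had medians of -0.67 in WT and -0.40 in 46T, and the 228 called lower in 46T alone had -0.42 in WT and -0.72 in 46T. None of these probe sets passed the test of the difference itself, so the lists of calls in 1 line alone do not show a response that differed.

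Of the 5 genes with a positive interaction and the smallest p, the largest difference was that of CML38, a calmodulin-like calcium sensor. Its log2 signal was 6.68, 7.25 and 6.26 in WT control and 9.51, 9.35 and 8.58 in WT dehydrated, and 6.21, 5.33 and 5.47 in 46T control and 9.99, 9.61 and 10.25 in 46T dehydrated. Every 46T control array was below every WT control array, and every 46T dehydrated array was above every WT dehydrated array. The rise was 2.42 ± 0.31 in WT (limma adjusted p = 1.72e-04) and 4.28 ± 0.31 in 46T (limma adjusted p = 5.88e-07). The interaction was 1.87 ± 0.44, with an interval of 0.91 to 2.82. All 3 control arrays of 46T and 1 of WT lay below their 40th percentile, so the size of the difference is uncertain, and with signals floored at 6 it was 1.47. Its limma p was 8.94e-04 unadjusted and 0.9999 adjusted, so it did not pass. Over the alternatives the interaction of CML38 ran from 1.3 to 2.33 and kept its sign.

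The other calmodulin-like genes leaned the same way. CML23 read 5.95, 5.42 and 5.50 in WT control, 7.43, 7.09 and 6.75 in WT dehydrated, 4.98, 4.85 and 5.71 in 46T control and 7.54, 7.53 and 7.79 in 46T dehydrated. The dehydrated arrays of 46T were all above those of WT, whereas the control arrays overlapped. It rose in both lines, by 1.47 ± 0.30 in WT and 2.44 ± 0.30 in 46T, and its interaction was 0.97 ± 0.42. All 6 control values were below their arrays' 40th percentile, and with a floor of 6 the interaction was 0.53. CML37 rose from a mean of 3.70 to 6.84 in WT and from 3.11 to 7.66 in 46T, again with all 6 control values below the 40th percentile, and its interaction was 1.41 ± 0.98 and 0.82 with a floor of 6. CML42 rose by 0.62 in WT and by 1.01 in 46T. CML30, CML41 and CML43 were called in neither line and had interactions of 0.25, 0.58 and 0.39. That of CML30 was -0.08 without WT control replicate 1, and that of CML43 was 0.04 without 46T dehydrated replicate 2. For CML41 the lowest value without 1 array was 0.40.

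All 7 tested CML genes thus had a positive interaction, beside 45.4% of the 7770 tested genes. Risers in general leaned positive as well, with 488 of the 736 shared risers and 155 of the 215 probe sets above an average rise of 2. Whether the CML genes differ from other risers was not tested. Of the 7, 4 rose in each line, beside 7.29% of all tested probe sets in WT and 6.69% in 46T. CML23 and CML37 passed the filter only through their dehydrated arrays. The 3 members with every control array at or above the 40th percentile, CML30, CML42 and CML43, had a median interaction of 0.38, and with a floor of 6 the median of all 7 was 0.53. Their median response was 0.62 in WT and 1.01 in 46T, and their median interaction was 0.58, beside -0.03 over all genes. Leaving out 1 array at a time it stayed between 0.45 and 0.85. The calcium and touch list holds 6 of these 7 genes, and its median interaction was 0.78, between 0.66 and 0.91 without any 1 array. The mean log2 signal of the CML genes was 6.86, 6.32 and 6.35 in WT control and 6.19, 6.10 and 6.11 in 46T control. It was 7.71, 7.48 and 7.23 in WT dehydrated and 7.87, 8.01 and 7.91 in 46T dehydrated. Every 46T array was below the WT arrays in control and above them in dehydrated seedlings. Of the 7 genes, 2 had an unadjusted p below 0.05 and 0 were called for the interaction in limma.

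Other genes with the smallest p and a positive interaction have no symbol in the tables used here, except TBL38, a member of the trichome birefringence-like family, whose proteins acetylate cell wall polysaccharides. AT2G46600 read 12.42, 12.32 and 12.04 in WT control, 12.21, 12.12 and 12.03 in WT dehydrated, 11.60, 11.55 and 11.73 in 46T control and 12.35, 12.11 and 12.28 in 46T dehydrated. The lines were apart in control seedlings, with 46T lower, and overlapped after dehydration. Its interaction was 0.76 ± 0.18 (limma adjusted p = 0.9999), from a response of -0.14 ± 0.13 in WT and 0.62 ± 0.13 in 46T, and only the latter was called. TBL38 read 8.52, 8.74 and 8.40 in WT control, 8.77, 8.67 and 8.76 in WT dehydrated, 7.71, 7.59 and 7.67 in 46T control and 8.67, 8.61 and 8.49 in 46T dehydrated. In control seedlings every 46T array of TBL38 was below every WT array, by 0.90 on average. In dehydrated seedlings 46T was lower by 0.14 on average, but the groups nearly touched, at 8.667 (highest 46T) and 8.668 (lowest WT). The interaction of TBL38 was 0.75 ± 0.21.

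In AT2G24600 and AT1G69840 the gap lay in the dehydrated arrays. AT2G24600 read 7.76, 8.00 and 8.31 in WT control and 8.30, 8.47 and 8.22 in 46T control, which overlapped, and 10.74, 10.57 and 10.81 in WT dehydrated and 12.11, 11.79 and 11.93 in 46T dehydrated, which did not. It rose by 2.69 ± 0.16 in WT and by 3.61 ± 0.16 in 46T, and its interaction was 0.93 ± 0.23 with an interval of 0.43 to 1.42. AT1G69840 read 11.12, 11.21 and 11.45 in WT dehydrated and 11.76, 11.78 and 12.03 in 46T dehydrated, from overlapping control values of 10.49 to 11.10, and its interaction was 0.83 ± 0.21. For both loci the lines overlapped in control seedlings and were apart after dehydration. None of the interactions passed after adjustment.

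Among genes that rose in both lines and had a mean log2 signal of at least 8.64, the median over tested probe sets, the larger rises in 46T were those of XTH18, AT2G24600, AT5G39580, AT5G10695 and STZ. XTH18, an enzyme that cuts and rejoins wall xyloglucan, rose by 1.88 ± 0.35 in WT and by 2.85 ± 0.35 in 46T, with an interaction of 0.97 ± 0.49 that was 0.58 without WT dehydrated replicate 2. Its arrays read 10.92, 9.23 and 9.89 in WT dehydrated and 10.68, 10.32 and 11.05 in 46T dehydrated, so the dehydrated groups overlapped. AT5G39580 had an interaction of 0.91 ± 0.32, which was 0.59 without 46T control replicate 3, and AT5G10695 one of 0.88 ± 0.37, which was 0.57 without WT control replicate 1. The intervals were 0.23 to 1.59 and 0.09 to 1.67, and neither passed after adjustment.

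On the other side, with a response more positive in WT, the named genes with the smallest p were AT2G39210, AT3G45710, AT5G39080, AT5G26280 and AT1G20380, which have no symbol here. AT2G39210 read 9.52, 9.49 and 9.65 in WT control and 10.80, 10.67 and 10.73 in WT dehydrated, and 10.53, 10.96 and 10.96 in 46T control and 11.36, 11.31 and 11.16 in 46T dehydrated. It was higher in 46T in both states, with no overlap, and the gap was wider in control seedlings. It rose by 1.18 ± 0.14 in WT, its difference in 46T was 0.46 ± 0.14 (limma adjusted p = 0.0552), and its interaction was -0.72 ± 0.20. AT3G45710 read 7.83, 8.22 and 8.13 in WT control, 7.49, 7.95 and 8.11 in WT dehydrated, 8.44, 8.69 and 8.46 in 46T control and 6.87, 7.65 and 6.66 in 46T dehydrated. It fell in 46T, by 1.47, and its WT arrays overlapped, with an interaction of -1.26 ± 0.35. AT5G39080 rose by 0.72 ± 0.15 in WT, and its difference in 46T was 0.04 ± 0.15.

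**Figure D4:**
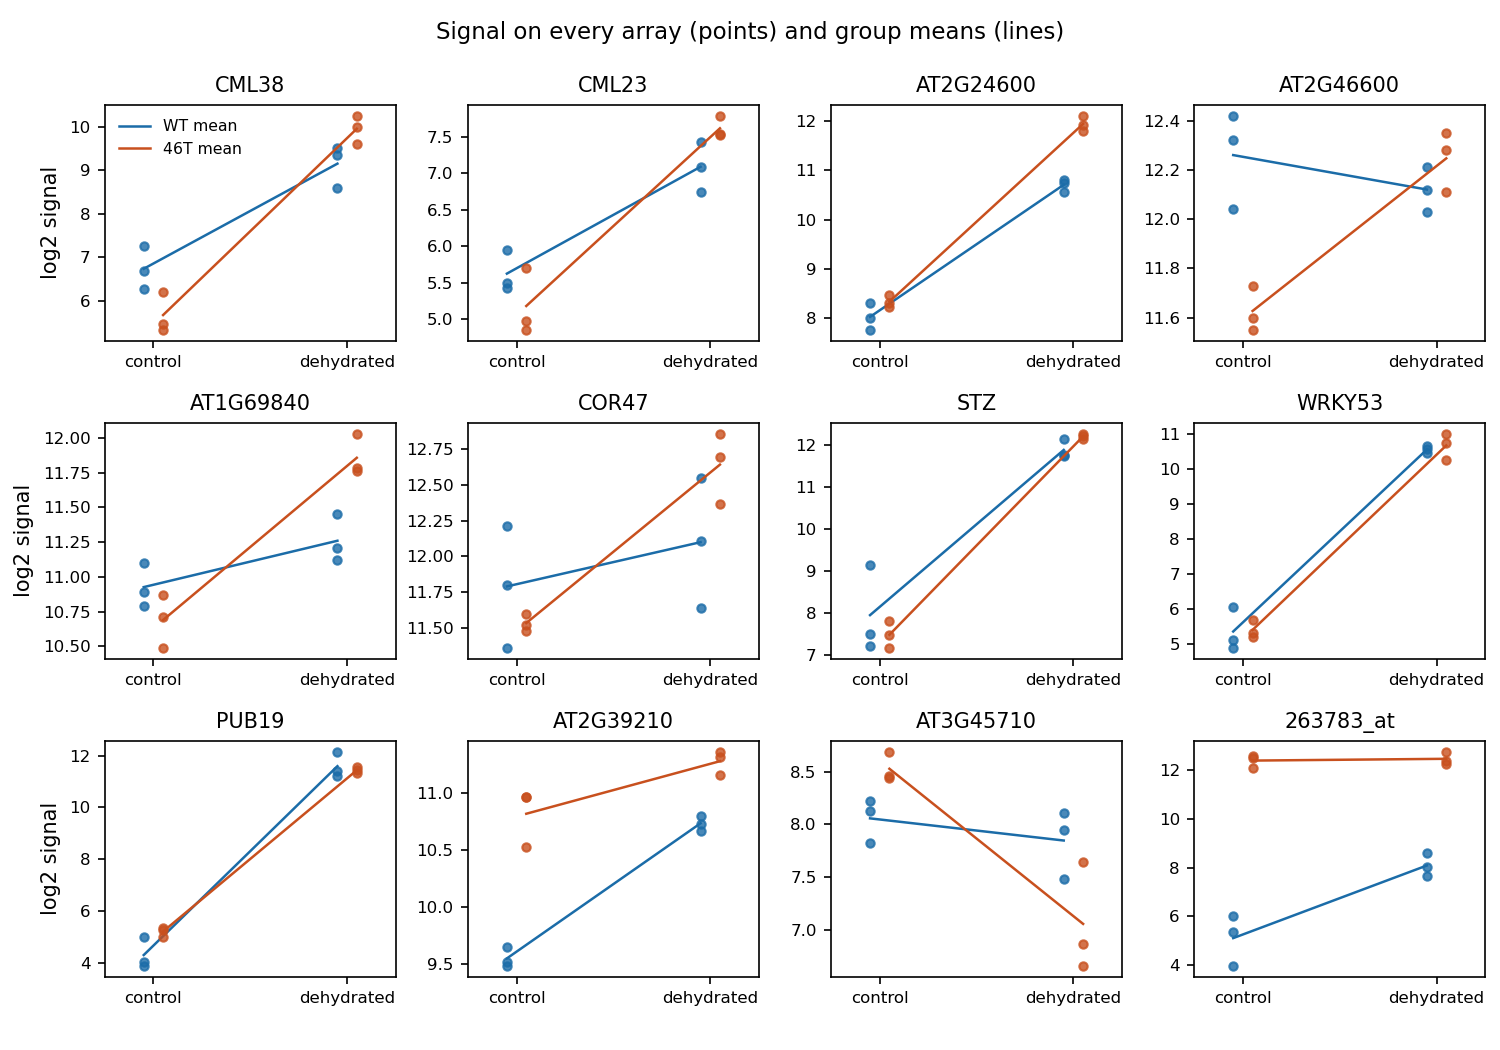
Log2 signal (vertical axis, a separate scale in each panel) of 11 named genes and 1 unnamed probe set in control and dehydrated seedlings, with WT in blue and 46T in orange. Points are arrays and lines join the group means. The lines of CML38 cross, those of WRKY53 run together, and those of the unnamed probe set 263783_at differ most in slope.

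The smallest p of all belonged to a probe set that the annotation leaves unnamed, 263783_at. It read 3.97, 6.0 and 5.35 in WT control and 8.02, 8.60 and 7.64 in WT dehydrated. In 46T it read 12.10, 12.59 and 12.52 in control and 12.26, 12.77 and 12.40 in dehydrated seedlings. It rose in WT by 2.99 ± 0.39, from control values below the 40th percentile of all 3 arrays, and in 46T, where every array was far above every WT array, its difference was 0.07 ± 0.39. The size of the WT rise is therefore uncertain, and with a floor of 6 the interaction was -2.02. The interaction was -2.92 ± 0.55 with an interval of -4.10 to -1.73, an unadjusted limma p of 1.16e-04 and an adjusted one of 0.9999. It was called in 2 alternatives, at -2.57 with array weights (limma adjusted p = 0.00504) and at -3.05 with the poly-A covariate (limma adjusted p = 0.00699).

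The plant U-box (PUB) E3 ubiquitin ligases, which tag proteins for degradation and include negative regulators of drought and immune responses, carried one of the strongest shared responses. Of 8 tested members 6 rose in each line, beside 7.29% of all tested probe sets in WT and 6.69% in 46T. The median response of the 8 members was 1.39 in WT and 1.36 in 46T. PUB19 read 3.89, 4.99 and 4.03 in WT control and 11.40, 12.15 and 11.22 in WT dehydrated, and 5.33, 5.28 and 5.02 in 46T control and 11.31, 11.56 and 11.43 in 46T dehydrated. All 46T control arrays were above the WT control arrays, and the dehydrated arrays overlapped. Its rise was 7.29 ± 0.28 in WT and 6.22 ± 0.28 in 46T, and its interaction of -1.07 ± 0.40 (limma adjusted p = 0.9999) did not pass. All 6 control values lay below their arrays' 40th percentile, so the sizes of both rises are uncertain, and with signals floored at 6 the interaction was -0.16. PUB22, PUB23, PUB24, PUB25 and PUB26 rose in both lines with interactions of 0.30, -0.26, -0.17, -0.17 and -0.36. The median interaction of the PUB genes was -0.17, between -0.28 and -0.01 without any 1 array. PUB43 and PUB49 were called in neither line.

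The few WRKY genes that could be tested showed no common lean. The annotation used names 6 WRKY genes and leaves 8794 probe sets unnamed, so the family as a whole was not covered. Of 5 tested members 2 rose in WT and 3 in 46T, beside 7.29% and 6.69% of all tested probe sets. The median interaction of the 5 members was -0.01, between -0.27 and 0.10 without any 1 array. WRKY53, a regulator of leaf senescence and, like WRKY46, a group III member, read 5.13, 6.05 and 4.89 in WT control, 10.46, 10.66 and 10.58 in WT dehydrated, 5.32, 5.21 and 5.67 in 46T control and 11.02, 10.75 and 10.28 in 46T dehydrated. The lines overlapped in both states. Its rise was 5.21 ± 0.27 in WT (limma adjusted p = 5.23e-08) and 5.28 ± 0.27 in 46T (limma adjusted p = 2.69e-08), and the interval of its interaction of 0.07 ran from -0.76 to 0.90. Its control values were below the 40th percentile on all 6 control arrays, so the sizes of its rises are uncertain. WRKY6, which acts in senescence and phosphate starvation, rose by 1.79 ± 0.27 in WT and by 1.64 ± 0.27 in 46T. WRKY22, known from immune signalling, was called in 46T alone, at 0.84 ± 0.20 against 0.42 ± 0.20 in WT, and its interaction of 0.42 ± 0.29 did not pass. WRKY20 and WRKY47 were called in neither line.

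Dehydration proteins had few named members. The list of dehydration and LEA proteins held 5 tested genes, of which 0 were called in WT and 1 rose in 46T in limma. At an unadjusted p below 0.05 there were 2 and 3. Over all tested probe sets 6.69% rose in 46T by call, and the share at the unadjusted threshold is not given here. All 5 interactions were positive, beside 45.4% of all tested genes, with a median of 0.33. That median stayed between 0.11 and 0.61 without any 1 array. The gene called was COR47, an acidic dehydrin of cold and drought. It read 11.36, 12.21 and 11.80 in WT control, 11.64, 12.55 and 12.11 in WT dehydrated, 11.48, 11.52 and 11.60 in 46T control and 12.37, 12.70 and 12.86 in 46T dehydrated. The 46T arrays separated and the WT arrays did not. Its difference was 0.31 ± 0.23 in WT and 1.11 ± 0.23 in 46T, and its interaction was 0.80 ± 0.32 (limma adjusted p = 0.9999). LEA4-5, LTI30, AT2G44060 and AT2G46140 had interactions of 0.33, 0.10, 0.17 and 0.44. None of these 4 genes was called in either line.

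Of 8 tested genes of auxin and growth, 0 were called in either line by limma, and 3 had an unadjusted p below 0.05 in each line. The share of all tested probe sets at that unadjusted threshold is not given here. The median difference of the 8 genes was -0.33 in WT and -0.14 in 46T. Of their interactions 7 were positive, beside 45.4% of all tested genes. The median of 0.36 stayed between 0.26 and 0.53 without any 1 array. ARL, which promotes cell expansion, read 11.13, 11.32 and 10.39 in WT control, 10.58, 9.58 and 10.27 in WT dehydrated, 9.50, 9.61 and 9.68 in 46T control and 9.35, 9.88 and 9.43 in 46T dehydrated. Its WT control arrays were above all 46T arrays, and its interaction was 0.76 ± 0.37. GH3.3, an enzyme that conjugates auxin to amino acids, had an interaction of 0.65 ± 0.33, and IAA29, an auxin co-repressor, of 1.18 ± 0.69. The mean signal of the list was 9.10 to 9.42 in WT control and 8.55 to 8.88 in 46T control, so the lines were already apart before dehydration. It was 8.66 to 9.0 in WT dehydrated and 8.40 to 8.99 in 46T dehydrated, where they overlapped.

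Of 10 tested autophagy genes, 4 fell in WT and 2 in 46T, beside 4.3% and 3.5% of all tested probe sets. The difference between the numbers of genes was not tested. Most of the 10 encode ATG8 proteins, which coat the vesicles that carry cell contents to the vacuole. The median difference of the 10 genes was -0.50 in WT and -0.48 in 46T. ATG8F fell in WT by 0.95, with 12.88, 12.82 and 12.53 in control and 11.51, 11.83 and 12.04 in dehydrated seedlings. In 46T it read 12.83, 12.85 and 12.83 in control and 12.03, 12.24 and 12.64 in dehydrated seedlings, a difference of -0.53 ± 0.17 that was not called (limma adjusted p = 0.0605). ATG8E had an interaction of 0.55 ± 0.30. APG8H, which RefSeq also lists as ATG8I, fell in both lines, by 0.90 in WT and by 0.53 in 46T. The median interaction of the list was 0.24, but it was -0.00 without WT control replicate 1, so that array decided it.

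Plastid-encoded genes lay on the negative side. Of 67 tested genes 0 rose and 2 fell in WT, and 0 rose and 1 fell in 46T in limma. Over all tested probe sets, 4.3% fell in WT and 3.5% in 46T. At an unadjusted p below 0.05 there were 12 and 3 of the 67, and the share of all tested probe sets there is not given here. The median difference of the 67 genes was 0.27 in WT and -0.04 in 46T. Of their interactions 15 were positive, beside 45.4% of all tested genes. The median was -0.26, between -0.47 and -0.09 without any 1 array. It moved closest to zero without WT control replicate 2. The mean log2 signal was 11.75, 11.59 and 12.17 in WT control and 12.02, 11.97 and 11.98 in 46T control, and 12.22, 12.05 and 11.96 in WT dehydrated and 11.83, 11.98 and 12 in 46T dehydrated. The WT control arrays spread over a wider range than all other arrays together. The signal comes from a 3' labelling kit, which primes on poly-A tails that most plastid transcripts lack in stable form, and the part of that in this result was not tested. The genes with the smallest p were psaC, a photosystem I subunit, at -0.76 ± 0.29, and accD, a subunit of the enzyme that starts fatty acid synthesis, at -0.91 ± 0.38. The mitochondrial nad genes, subunits of respiratory complex I, had a median of -0.29 over 5 genes, between -0.40 and -0.08 without any 1 array, and the nuclear-encoded photosynthesis genes had -0.01.

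The lowest median interaction of a symbol family was that of PDF, at -0.96 over 6 genes, and it held genes of unlike function, the plant defensins PDF1.2, PDF1.2b, PDF1.4 and PDF2.5 and the peptide deformylases PDF1A and PDF1B. PDF1.2, a defensin induced by jasmonate and ethylene, read 7.32, 5.07 and 6.06 in WT control, 7.96, 8.61 and 6.28 in WT dehydrated, 6.14, 8.51 and 8.66 in 46T control and 6.12, 4.86 and 8.26 in 46T dehydrated. All 4 groups overlapped and replicates of a group differed by more than 2, so its interaction of -2.82 ± 1.24 had an interval of -5.48 to -0.17. PDF1.2b and PDF1.4 had -3.03 ± 1.52 and -1.79 ± 0.91, and the deformylases had 0.22 and -0.12. The related transcripts PDF1.2 and PDF1.2b may share probes, and the part of that was not tested. The family's median moved to -0.52 without 46T dehydrated replicate 2 and to -1.30 without WT control replicate 1.

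The remaining groups added little. Of 40 groups with at least 5 tested genes, 20 kept the sign of their median interaction without any 1 array. Among all tested genes, 45.4% had a positive interaction. The CYP symbol family, mostly cytochrome P450 enzymes of the CYP71B branch with the cyclophilins CYP59 and CYP71, had a median of -0.25 over 15 genes, between -0.32 and -0.19, with 3 positive. LSM proteins, which act in RNA decapping and splicing, had 0.31 over 6 genes, all positive, and 0.07 without WT control replicate 1. The actin-binding NET proteins had -0.40, which turned to 0.57 without WT control replicate 1, where the mean of these genes was 4.82 against 6.78 to 8.02 on the other arrays. Of 11 cell wall genes 5 rose in WT and 4 in 46T, beside 7.29% and 6.69% of all tested probe sets. The median interaction of the 11 genes was 0.12, which was -0.01 without 46T control replicate 3 and 0.24 without WT control replicate 2.

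**Figure D5:**
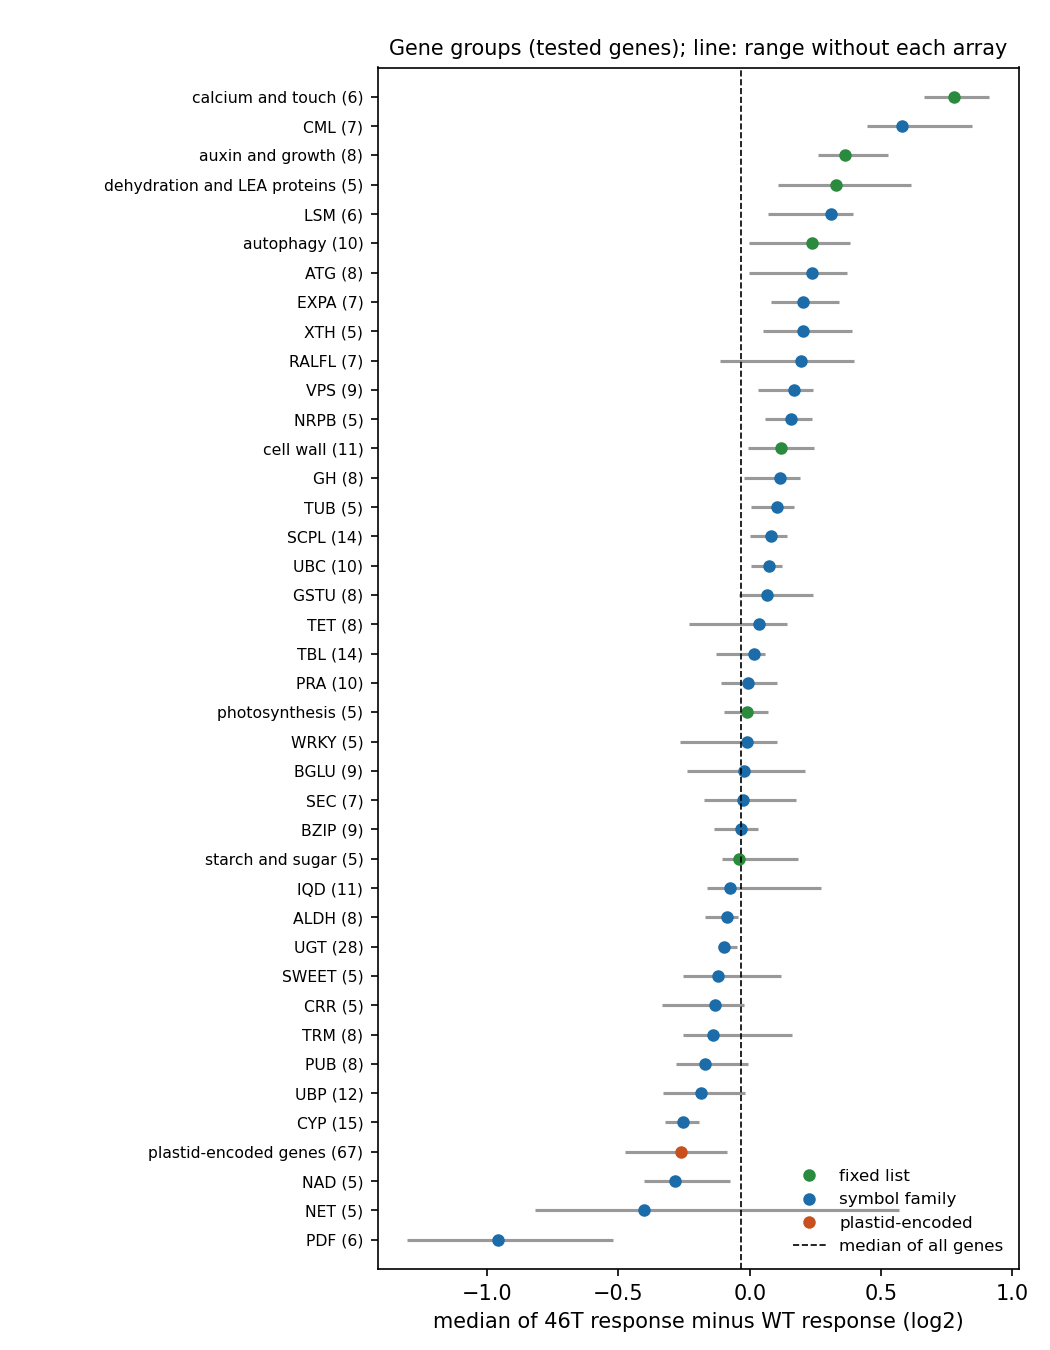
Median interaction (46T response minus WT response, log2, horizontal axis) of the 40 gene groups with at least 5 tested genes, whose number is in brackets. Dots are group medians (green for fixed lists, blue for symbol families, orange for plastid-encoded genes), grey lines span the medians without each array in turn, and the dashed line is the median of all genes at -0.03. Calcium and touch and CML are highest and PDF is lowest, and the line of NET crosses zero.

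Lists with fewer than 5 tested genes gave single values. FMA, a transcription factor that completes guard cell formation, was the tested gene of the guard cell list. It read 6.52, 7.15 and 6.96 in WT control, 6.12, 6.95 and 6.33 in WT dehydrated, 7.47, 7.11 and 6.77 in 46T control and 5.36, 6.09 and 5.82 in 46T dehydrated. It fell in 46T by 1.36 (limma adjusted p = 0.0106), its WT groups overlapped, and its interaction of -0.96 ± 0.43 did not pass. Every 46T dehydrated value lay below its array's 40th percentile, so the size of the fall is uncertain. With signals floored at 6 the interaction was -0.68. In a whole seedling, fewer cells of a type and less RNA per cell cannot be told apart. All 4 tested clock and light genes had a negative interaction, whereas 45.4% of all tested genes had a positive one. The median of the 4 genes was -0.49, and it was -0.28 without WT control replicate 1. Among them CCL fell in both lines, by 1.08 in WT and by 1.77 in 46T, and CCR2, a glycine-rich RNA-binding protein under clock control, rose in both, by 1.55 and 1.44. The reference genes PEX4 and GAPC2, called in neither line, had interactions of 0.05 ± 0.24 and 0.01 ± 0.18.

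The small lists of defence, redox and starch genes held few tested members. GRX480, a glutaredoxin of salicylate signalling, rose in WT by 1.55 ± 0.33, and its difference in 46T was 1.07 ± 0.33 (limma adjusted p = 0.0581). BIK1, a kinase that acts below immune receptors, rose by 0.67 ± 0.20 in WT and by 0.94 ± 0.20 in 46T. NDB2, an alternative mitochondrial NAD(P)H dehydrogenase, rose by 0.77 ± 0.20 and 0.98 ± 0.20. Their interactions were -0.48, 0.26 and 0.21, and each rested on 1 array. Without WT control replicate 3 that of GRX480 was -0.03, without WT dehydrated replicate 2 that of BIK1 was 0.05, and without 46T control replicate 2 that of NDB2 was -0.01. QQS, an orphan gene that affects starch content, read 6.62, 7.16 and 5.96 in WT control, 5.76, 5.77 and 6.24 in WT dehydrated, 9.19, 9.02 and 9.57 in 46T control and 8.91, 9.10 and 8.62 in 46T dehydrated. It was higher on every 46T array than on every WT array, it was called for dehydration in neither line, and its interaction was 0.27 ± 0.39. Every WT dehydrated value lay below its array's 40th percentile, and with signals floored at 6 the interaction was 0.13. The interaction had the other sign in 3 alternatives.

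Among genes above the same mean signal that rose in both lines, AT5G52750, AT5G56980, AT1G55960 and AR781 had the largest excess in WT. AT5G52750 read 6.10, 6.16 and 6.65 in WT control, 10.51, 9.26 and 9.51 in WT dehydrated, 8.30, 8.90 and 8.68 in 46T control and 11.48, 11.46 and 11.01 in 46T dehydrated. It was higher in 46T in both states, and it rose by 3.46 ± 0.29 in WT and by 2.69 ± 0.29 in 46T. Its interaction of -0.77 ± 0.40 had an interval of -1.63 to 0.10, and it was -0.20 with a pseudocount of 64 and -0.39 without WT dehydrated replicate 1. AT5G56980 had an interaction of -0.57 ± 0.31, and AT1G55960 and AR781 had -0.44 ± 0.40 and -0.44 ± 0.36. Without 1 array, AT1G55960 ranged from -0.85 (46T dehydrated replicate 1 left out) to -0.18 (46T dehydrated replicate 3 left out), and AR781 from -0.69 (WT control replicate 2 left out) to -0.21 (46T dehydrated replicate 2 left out). The intervals of all 4 genes included zero.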

How the data were processed

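Total RNA of 12 seedling samples was measured on Affymetrix ATH1 arrays. The authors deposited log2 signals. MAS5 made them, per the submitters' processing notes, in a version not stated there. Put back on the linear scale, each array's mean without its top and bottom 2% was 500.0 to 500.1, and no further normalization was applied. The number of arrays limits the precision.

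Samples were grouped by title. limma 3.58.1 in R 4.3.3 fitted 4 group means to each probe set (lmFit, eBayes with an intensity trend), and the step was tested on simulated data. Group medians, slopes and counts were computed in Python 3.11.15 with pandas 2.3.3. Of 22810 probe sets, 13513 name 1 gene in the platform annotation, 503 name several and 8794 are unnamed here. Symbols came from RefSeq's TAIR10.1 gene table, which matched 13436. A gene with several probe sets counts by its brightest.

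Groups were 21 lists, 17 of them with a tested gene (71 in all), symbol families with at least 5 tested genes, and the plastid-encoded genes. Keyword groups that had also been planned could not be formed, because the gene table holds no descriptions. The comparison, lists and rules were chosen with earlier results of these data known. Named genes were the 5 of each sign with the smallest interaction p (none passed), the 5 largest shared rises and falls, the 5 that differed most in each direction among shared calls (these with a mean log2 signal of at least 8.64, the median), up to 2 genes of each list or family described by interaction p, and the WRKY family. Other group members, AT3G48650, AT5G52760 and 263783_at were picked after their values were seen.

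Replicate numbers were not used to pair the samples in the reported fit. Of 18 same-number pairs, 5 had deviations correlated above 0.1, with a range of -0.12 to 0.35. The highest value of a pair with different numbers was 0.14. Between WT control and WT dehydrated, same-number arrays correlated at 0.35, 0.29 and 0.07, and different-number arrays at -0.36 to 0.07. In 46T the same-number values were 0.18, -0.07 and 0.07. Whether the samples were paired was not tested.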

Additional observations from a re-analysis of the deposited data

Results flagged for a closer look

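Dehydration separated the arrays of WT and 46T in opposite directions in 9 probe sets, that is, every dehydrated array lay on one side of every control array in WT and on the other side in 46T. Of the 9, 3 name a gene, and none of the 9 was called for the interaction in limma. AT5G26200 had a response of -0.21 in WT and 0.23 in 46T, with an interaction of 0.44 ± 0.21 (SE, limma adjusted p = 0.9999). AT3G01930 had 0.23 in WT and -0.39 in 46T, with an interaction of -0.62 ± 0.26 (limma adjusted p = 0.9999). AT2G31740 had 0.27 in WT and -0.09 in 46T, with an interaction of -0.36 ± 0.22 (limma adjusted p = 0.9999). How many of 14495 probe sets would separate so without a difference in response was not tested.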

How the results depend on the processing

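The interaction was called in 0 probe sets in the reported fit, in 2 with signals floored at 6, in 1 with array weights, in 1 with a poly-A covariate, and in 0 under the other alternatives. The 2 were AT3G48650 (3.06) and AT5G52760 (2.75), whose WT control signals were 2.13 to 4.27 and 0.05 to 4.88, so that the floor set the WT response. Calls for dehydration in WT numbered 1680, but 3469 with array weights and 2541 with the poly-A covariate. Calls in 46T numbered 1476, but 3770 and 2549. Leaving out arrays or replicate numbers gave 464 to 2372 calls in WT and 603 to 2382 in 46T. The slope of 0.886 became 0.391 with no filter on low signals, 1.23 as the inverse of the exchanged slope, 1.05 by orthogonal regression, 1.09 corrected for error and 1.04 over shared calls. The correlation of 0.849 became 0.390 with no filter and 0.768 to 0.853 with arrays left out. The cause of these changes was not tested. With the replicate block the counts were 1778, 1592 and 0, within 1.5 times of those reported. Of 73 named genes, 52 kept the sign of their interaction under all 26 alternatives; without 1 array, the interaction changed sign in 16 of the 73 and moved by over 1.5 times in 34 others. Shared calls and the medians of strong risers were followed under alternatives chosen after seeing the data: the median interaction above a rise of 2 lay between 0.21 and 0.40 in all of them. Array weights gave 5 probe sets called in opposite directions and no filter gave 1. Weights ran from 0.142 (WT control replicate 1) to 3.84. Low signals and 3 arrays per group limit what can be shown.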
